A study of Ovis aries with 2 samples.

Results

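The nuclear loci with the most transcript in sheep subcutaneous fat were followed in 2 RNA sequencing libraries, 1 of thin-tailed and 1 of fat-tailed animals. A locus was included when its entries in both tables covered the same stretch of the genome, it did not lie on the mitochondrial genome, it spanned at least 1000 bp in both, and it reached at least 100 FPKM in at least 1 library. FPKM divides the fragments of a locus by its transcript length and by the fragments of the library, so levels can be compared between transcripts of different length. The rule found 1137 loci, 5.54% of the 20529 matched nuclear loci of that span and 10.05% of the 11316 among them with at least 1 FPKM in 1 library. Because FPKM in both libraries chose the loci, their levels and ratios are given as a description, without a test.

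Both libraries came from lambs of Iranian native sheep breeds, slaughtered at an age of 7 months after weaning at 90 days and 120 days on a common diet in individual pens, with no treatment. The fat-tailed group is recognised from a single word of its title, and since the tissue is also called fat, every direction below depends on that reading. The design text mentions duplicates, 1 library per tail type was analysed here, and the number of animals behind a library does not appear in the labels. Below, thin-tailed and fat-tailed sheep stand for these single libraries, pairs of values come in that order, and no value has a replicate check. Bracketed ranges are the bounds the authors deposited with each FPKM.

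Subcutaneous fat consists of adipocytes, which store triglyceride and secrete hormones, within a stroma of fibroblasts, vessels and immune cells. In such a tissue a small set of genes supplies much of the messenger RNA, commonly genes for lipid handling, for extracellular matrix and for protein synthesis. In bulk RNA, fewer cells of a type and less RNA per cell cannot be told apart. Neither table gives a gene name, and none of the 73 Ensembl identifiers carried by the abundant loci occurred in the RefSeq gene table used. Names they may have elsewhere were not available. Adipocyte markers could thus not be looked up, and loci are given by chromosome and by start and end as in the thin-tailed table, counted from 1, on a genome build that no source used here names.

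A locus on chromosome 7 and one on chromosome 17 headed the fat-tailed and the thin-tailed library. The chromosome 7 locus (16134484 to 16136798) read 22949 FPKM (22229 to 23669) in thin-tailed sheep, its rank 4, and 33723 (32672 to 34775) in fat-tailed sheep, its rank 1. It alone held 2.03% and 2.93% of all FPKM summed over loci of at least 1000 bp. The chromosome 17 locus (68430407 to 68432223) read 36248 FPKM (34444 to 38051) in thin-tailed sheep, rank 1, and 14735 (13610 to 15861) in fat-tailed sheep, rank 7, a 2.46-fold difference. It was also the locus of the first 10 by mean FPKM with the smallest overlap between the tables, with an end at 68432437 in the fat-tailed table.

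The largest disagreement at the top was on chromosome 18. The locus there (68373349 to 68376670) reached 31675 FPKM (27584 to 35766) in thin-tailed sheep, rank 2, and 27.0 FPKM (24.6 to 29.4) in fat-tailed sheep, rank 2713. Its ends were identical in both tables and it overlapped no other locus. The width of the deposited intervals can be turned into an implied fragment number, the count that would give that width if counting error alone set it and the bounds lay 2 SD from the value. For this locus the implied numbers were 240 and 496 fragments, so they ran opposite to the 1173-fold FPKM ratio. The locus held 2.80% of the thin-tailed sum, so the shares of summed FPKM that contain it are also given without it, with the locus left out of the sum as well.

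Of the first 10 loci by mean FPKM, 7 were higher in fat-tailed sheep, beside 41.1% of the 11316 matched nuclear loci and 43.3% of all 13120 matched loci with at least 1 FPKM. The locus on chromosome 9 was the third of the 10 that was lower. It (57536432 to 57541253) read 23388 and 18709 FPKM, ranks 3 and 5. One on chromosome 3 (10979116 to 10983240) read 15348 and 19439.6 FPKM, ranks 5 and 4. The second chromosome 3 locus (100399789 to 100404375) read 12257 and 19716 FPKM, ranks 7 and 3. All 3 overlapped no other locus. The last differed most, 1.61-fold, but its implied fragments, 17241 and 3365, ran the opposite way.

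A chromosome 5 locus (14649811 to 14650916) read 12400.0 and 20157 FPKM, ranks 6 and 2. It was the shortest of the 10, at 1032 bp in the fat-tailed table. The chromosome 21 locus (39823812 to 39886786), the longest at 62975 bp, overlapped 3 others in each table and read 9193 and 15831 FPKM, ranks 14 and 6, a 1.72-fold difference. The last members of this group had the narrowest intervals. ENSOARG00000007328 on chromosome 5 (59281058 to 59284719), the one locus of the 10 with an Ensembl identifier, read 10743 FPKM (10612 to 10874) and 13774 (13625 to 13924). The chromosome 14 locus (54981354 to 54983763) read 10727 FPKM (10598 to 10857) and 12934 (12792 to 13077). The implied fragments were 27066 and 34001 for the former and 27532 and 33000.4 for the latter, and the FPKM differed 1.28-fold and 1.21-fold.

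**Figure D1:**
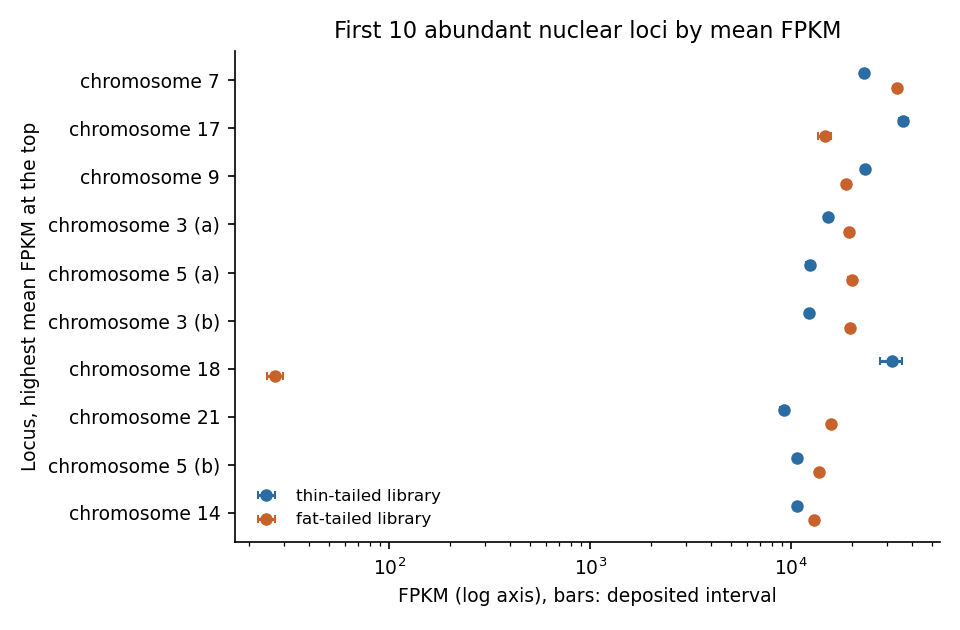
FPKM of the 10 loci with the highest mean, on a log axis, with 1 point per library and bars for the deposited intervals; a and b tell loci of 1 chromosome apart in the order of their mean. In 7 of the 10 the fat-tailed point lies to the right, and the chromosome 18 locus is at 31675 FPKM in thin-tailed and 27.0 in fat-tailed sheep.

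The intervals of all 10 loci were apart between the libraries, beside 54.3% of the 11316 loci, and 8 of the 10 differed by less than 2-fold. Together these 10 made up 16.3% and 14.7% of the summed FPKM. Without the chromosome 18 locus the other 9 made up 13.9% and 14.7%, the reverse order. All 1137 abundant loci held 72.1% and 71.4% of the sum, and 71.3% and 71.4% without that locus, while they were 4.54% and 4.53% of the loci of at least 1000 bp. Mitochondrial loci of that span, 6 in each table, held 0.664% and 0.359%. The share depends on which loci enter the sum: over loci of any span it was 1.97% and 0.217%, since most of that sum lay in loci under 1000 bp.

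Within each library the levels fell steeply with rank. The median abundant locus stood at 196.9 FPKM in thin-tailed sheep, with quartiles of 119.5 and 436.2, and at 166.9 in fat-tailed sheep, with quartiles of 109.3 and 370.2. A level of 1000 FPKM or more was read for 143 and 120 loci, of 5000 or more for 26 and 37, and of 10000 or more for 11 and 16. The fat-tailed library thus had fewer loci above 1000 FPKM and more above 5000.

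Taking each library's own order, the first 10 abundant loci held 16.6% and 15.97% of the sum. The first 50 held 36.0% and 39.1%, the first 100 held 46.1% and 50.1%, and the first 500 held 64.8% and 65.2%. Of the sum, 50% was reached with 133 and 100 loci. Leaving out the chromosome 18 locus put the first 10 at 15.1% and 15.97%, the first 50 at 34.4% and 39.1%, the first 100 at 44.7% and 50.1%, and the first 500 at 63.8% and 65.2%, and 50% was then reached with 148 and 100 loci. Among loci that overlap no other, the fat-tailed library held no higher share from the first 50 on. This changed in part without the chromosome 18 locus. The first 50 of these loci held 27.1% and 26.3% of the same sum, and 25.2% and 26.3% without it. The first 100 of these held 32.1% and 30.1% of the same sum, and 30.2% and 30.1% without the chromosome 18 locus. As a share of the FPKM of such loci alone they held 51.9% and 51.8%, and 49.7% and 51.8% without that locus.

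**Figure D2:**
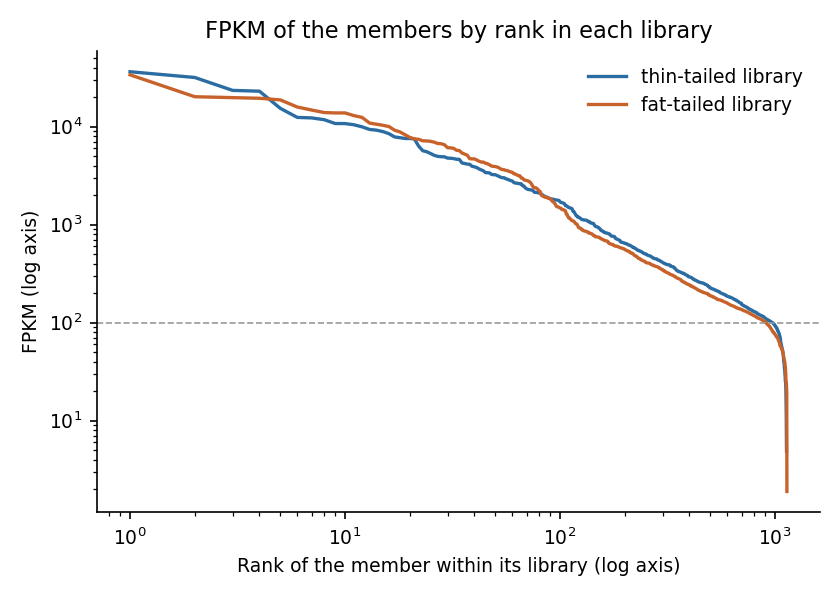
FPKM of the abundant loci against their rank within each library, both on log axes, with a dashed line at 100 FPKM. The thin-tailed curve starts higher, at 36248 against 33723 FPKM, and the fat-tailed curve lies above it through most of the first 50 ranks. The thin-tailed curve is the higher one again at rank 200 and for most of the ranks beyond, but not at the very last. Loci listed at 0, 5 in thin-tailed and 1 in fat-tailed sheep, are not drawn.

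The libraries shared most of their top ranks. Ranked among the matched nuclear loci of at least 1000 bp, 7 loci were among the first 10 of both libraries, 42 among the first 50, 80 among the first 100 and 401 among the first 500. When ranks were taken among all nuclear loci of a table, matched or not, 71 of the first 100 were shared. The median abundant locus moved by 0.50 on the log2 scale of rank, up or down. A 2-fold or larger difference in rank was found for 264 loci (23.2%), of which 126 stood nearer the top in fat-tailed and 138 in thin-tailed sheep. For the other 10179 of the 11316 loci the median shift was 0.24, and 2-fold shifts were not counted. On this scale the same number of places weighs less further down the order, so nothing is read from the difference. Across the 1137 loci FPKM had a Spearman correlation of 0.66 between the libraries, against 0.86 across the 11316 matched loci. The rule narrows the range of levels in the former, and the loci of a library share its depth.

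Changes of rank were examined among the 136 loci that were within the first 200 of at least 1 library and overlapped no other locus. Besides the loci on chromosomes 18 and 17, the largest falls towards fat-tailed sheep were on an unplaced sequence and on chromosomes 1 and X. The locus on the unplaced sequence (2722 to 4345) read 4971 FPKM (2952 to 6991) in thin-tailed sheep, rank 27, and 19.99 FPKM (13.8 to 26.2) in fat-tailed sheep, rank 3331. These values rested on only 24.2 and 41.4 implied fragments. The chromosome 1 locus (182737209 to 182745496) read 1770 FPKM (1662 to 1878) and 192.0 (179.1 to 204.9), ranks 98 and 494. The X locus (64596931 to 64601168) read 2850 FPKM (2613 to 3087) and 616 (583 to 650), ranks 58 and 177. Their FPKM differed 9.22-fold and 4.62-fold, but implied fragments had log2 ratios of -0.27 and 1.21, the latter in the opposite direction.

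In 4 of the 5 largest rises the implied fragments also rose, by less than FPKM in 3 of them. The chromosome 25 locus (4333187 to 4367649) read 5.59 FPKM (4.80 to 6.39) in thin-tailed sheep, rank 7069, and 557.9 (499.7 to 616.1) in fat-tailed sheep, rank 200. This was a 99.7-fold difference by FPKM, while the implied fragments were 197 and 367. The rises on chromosome 1 (86230621 to 86238111), from rank 1151 to rank 182, and chromosome 3 (100723193 to 100724856), from rank 629 to rank 100, came next. Their log2 ratios were 2.84 and 3.04 by FPKM, and 2.92 and 1.81 by implied fragments. The chromosome 19 locus (48033691 to 48035143) read 244 FPKM (226 to 263) and 1708 (1632 to 1784), ranks 479 and 93, with a log2 ratio of 2.80 by FPKM and 1.51 by implied fragments. The fifth was the chromosome 7 locus at the head of the fat-tailed library, whose implied fragments, 4067 and 4114, hardly differed.

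Of the 120 loci among the first 100 of at least 1 library, 17 lay beyond rank 200 in the other, 8 of them high in thin-tailed and 9 high in fat-tailed sheep. These loci were singled out after their values were seen. The 8 lay between 1770 and 31675 FPKM in thin-tailed sheep and between 19.99 and 521 FPKM in fat-tailed sheep. The 9 lay between 4.88 and 547 FPKM and between 1478 and 6528 FPKM. Only 7 of the 17 overlapped no other locus. Implied fragments ran the same way as FPKM for 4 of the 8 and 7 of the 9. The most extreme of the latter, on chromosome 24 (41490570 to 41492727), read 4.88 FPKM (2.07 to 7.68) and 3281 (1465 to 5096), ranks 7493 and 62, on 12.1 and 13.1 implied fragments. A chromosome 5 locus (59812284 to 59851510) read 45.7 FPKM (42.9 to 48.5) and 1623 (1558 to 1689), a 35.5-fold difference, and its log2 ratio by implied fragments was 1.17. Among the 8, ENSOARG00000010999 on chromosome 14 (53341130 to 53383109) read 9939 FPKM and 163.7 FPKM, and its intervals ran from 0 to 29818 and from 0 to 17269. Intervals this wide fix no rank for it. Its implied fragments were 1.0 and 3.7e-04, so its place among the 4 that ran the same way carries no weight.

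Other high ratios belonged to loci of moderate level. Among the 644 abundant loci that overlapped no other, the highest ratios after the chromosome 25 locus were on chromosomes 3, 2, 5 and 20. The chromosome 3 locus (103979150 to 104009983) read 14.0 FPKM (12.9 to 15.0) in thin-tailed and 199 (183 to 215) in fat-tailed sheep. ENSOARG00000007318 on chromosome 2 (242185986 to 242190773), without an identifier in the fat-tailed table, read 12.1 FPKM (11.1 to 13.1) and 142 (129 to 155). The chromosome 5 locus (40557491 to 40568678) read 12.8 and 120 FPKM, and the chromosome 20 locus (7388331 to 7400017) 23.4 and 207 FPKM. These were 14.2-, 11.8-, 9.36- and 8.83-fold differences. For all 4 the implied fragments were lower in fat-tailed sheep, with log2 ratios from -0.16 to -1.61, against the direction of FPKM. The values on chromosomes 3 and 2, -0.16 and -0.19, lay near the median of -0.21 over the expressed matched loci that were not abundant.

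The lowest ratios beyond the loci already described were both on chromosome 2. One (243071846 to 243078727) read 431 FPKM (409 to 453) in thin-tailed and 38.3 (36.2 to 40.5) in fat-tailed sheep, 11.2-fold apart, with 1582 and 1249 implied fragments. The other (100489026 to 100505089) read 316 FPKM (287 to 344) and 44.7 (41.5 to 47.9), a 7.06-fold difference, with 491 and 786 implied fragments. The first kept its direction by fragments and the second did not.

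Over all 1137 abundant loci, compared as log2 of the ratio of FPKM + 1, 114 (10.03%) were 2-fold or more above thin-tailed sheep in fat-tailed sheep and 221 (19.4%) were 2-fold or more below. Among the 11316 matched nuclear loci of at least 1000 bp and 1 FPKM, the shares were 8.12% and 15.6%, and among all 13120 matched loci of at least 1 FPKM they were 8.30% and 14.7%. The rule itself used these values, so nothing is read from the difference. Their log2 ratios had a median of -0.19 and quartiles of -0.81 and 0.41, beside -0.16 for the 11316 loci. The remaining 802 loci (70.5%) lay within 2-fold. A difference of 8-fold or more was found for 33, of which 10 overlapped no other locus. The share at 8-fold was not counted over all matched loci, so nothing is read from the 33. Deposited intervals were apart for 921 loci, or 81.0%, against 54.3% of the 11316 and 50.4% of the 13120. Intervals of abundant loci were also narrower: the median half-width was 6.71% and 7.24% of the FPKM, against 15.97% and 17.6% for the 11316.

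Implied fragments gave a partial second view of the 2-fold loci. Among the higher loci 109 had a value, and 67 of these (61.5%) ran the same way. Among the lower loci 220 had one, and 184 (83.6%) ran the same way. In addition, a 2-fold difference the same way was found for 29 and 88. Implied fragments derive from the same estimates as the FPKM and are no independent measurement. They are not scaled to depth. Of the loci among the 11316 that were not abundant, 9884 had a value, and 36.4% of these were higher in fat-tailed sheep. Lower loci thus ran the same way more often from the outset, and the shares of 61.5% and 83.6% cannot be compared directly.

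**Figure D3:**
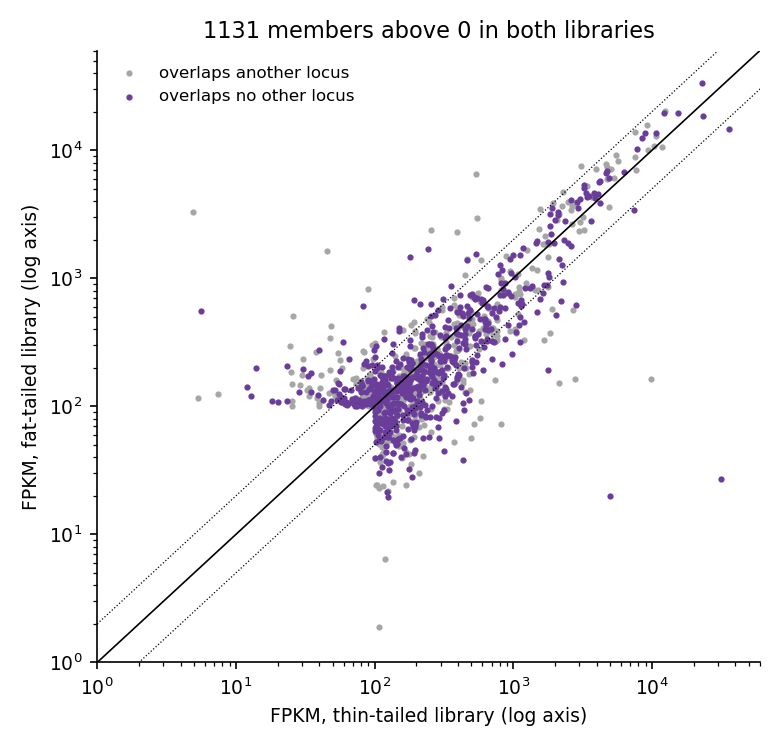
FPKM of the abundant loci above 0 in both libraries, thin-tailed on the x axis and fat-tailed on the y axis, both log axes; the solid line marks equality and dotted lines 2-fold differences. Most points lie between the dotted lines (802 of 1137 loci), and the purple point at 31675 and 27.0 FPKM is the chromosome 18 locus. The empty corner below 100 FPKM in both is made by the rule.

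The direction of the ratio differed with the level of the locus. Of the 81 loci with a mean of at least 2000 FPKM, 63 (77.8%) were higher in fat-tailed sheep, with a median log2 ratio of 0.43 and quartiles of 0.09 and 0.63. Of the 1056 loci below that mean, 410 (38.8%) were higher, with a median of -0.26. At any size, 41.1% of the 11316 matched nuclear loci and 43.3% of the 13120 matched loci were higher. Most of the differences among the 81 loci were small: 5 were 2-fold or more above and 5 as far below. The share was 76.7% for the 43 of the 81 that overlapped no other locus, and 70.4% by implied fragments. Both use the same loci and the same estimates, so neither is a separate check. The size of the difference was smaller by implied fragments, with a median log2 ratio of 0.21 for the 81 loci. For the 34 of them with a mean of 5000 FPKM or more it was 0.095, against 0.38 by FPKM. The boundary was set after the values were seen, and from 1000 FPKM upwards the share was 64.2% of 134 loci.

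By level, 27 of 34 loci with a mean of 5000 FPKM or more and 36 of 47 between 2000 and 5000 FPKM were higher in fat-tailed sheep. Between 1000 and 2000 FPKM 23 of 53 were higher, between 500 and 1000 FPKM 36 of 108, between 200 and 500 FPKM 96 of 283, and between 100 and 200 FPKM 186 of 450. In both groups over 2000 FPKM most loci were higher in fat-tailed sheep, and in the groups listed under it most were not. The boundary was set after these values were seen, so no step is located by it. The 81 loci of 2000 FPKM or more took 42.5% and 46.4% of the sum, or 40.8% and 46.4% without the chromosome 18 locus, and the others 29.6% and 25.1%. Among loci that overlap no other, the shares of the 43 loci over this level were 25.7% and 24.95% of the same sum, and 23.6% and 24.95% without the chromosome 18 locus. FPKM are relative to the fragments of a library, so a higher share of some loci goes with a lower share of others.

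**Figure D4:**
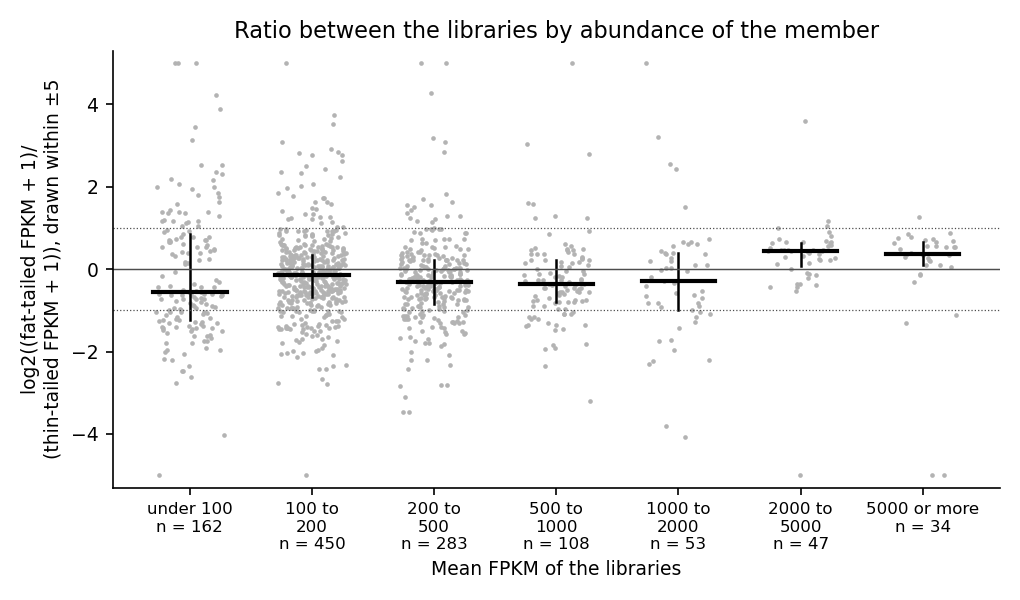
Log2 ratio between the libraries for each abundant locus, grouped by the mean FPKM of the libraries, with thick bars for the medians, vertical lines for the quartiles and points beyond 5 drawn at 5. The medians lie at 0.43 and 0.38 in the 2 groups of 2000 FPKM or more and below 0 in the 5 groups under it; loci with a mean under 100 FPKM had to differ to be included.

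At the lower edge the rule cut through a continuous range. At least 100 FPKM was reached in both libraries by 749 loci (65.9%), in thin-tailed sheep only by 225 and in fat-tailed sheep only by 163. The former 225 had median values of 136.8 and 70.1 FPKM, and 175 of them stood at 50 FPKM or more in fat-tailed sheep. The latter 163 had medians of 71.3 and 134.2 FPKM, and 114 stood at 50 or more in thin-tailed sheep. Just inside lay 2 loci on chromosome 1 (starting at 183428760 and 2897097), with 100.1 FPKM each in thin-tailed sheep, and one on chromosome 7 (starting at 1533553), with 100.1 FPKM in fat-tailed sheep. Just outside lay 2 loci on chromosome 24 (starting at 24802861 and 1006593) and one on chromosome 20 (starting at 8008193), with higher values of 99.9, 99.7 and 99.7 FPKM.

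At the far edge, 6 abundant loci were listed at 0 in 1 library. No fold is given for them, because an estimate that failed may also be written as 0. Listed at 0 in thin-tailed sheep were loci on chromosome 21 (49449861 to 49504201), at 425 FPKM (273 to 577) in the other library, on chromosome 24 (38600242 to 38735793), at 274, on chromosome 5 (40905657 to 40914683), at 141, on chromosome 10 (29275771 to 29457586), at 136, and on chromosome X (117751995 to 118028018), at 105. Listed at 0 in fat-tailed sheep was a chromosome 24 locus (26139961 to 26141086), at 339 FPKM (315 to 363) in thin-tailed sheep. All 6 overlapped at least 1 other locus in at least 1 table. The chromosome 10 locus shared its end with the start of an abundant neighbour (29454677 to 29502617), which read 2135 FPKM (2026 to 2243) in thin-tailed sheep and 151 (144 to 158) in fat-tailed sheep, opposite in direction to the locus listed at 0.

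Some abundant nuclear loci had no partner and stayed outside. Of the 1147 nuclear loci with at least 1000 bp and 100 FPKM in thin-tailed sheep, 173 were left out, holding 11.05% of the sum. Of the 1071 in fat-tailed sheep, 159 were left out, holding 12.4%. Every one of them overlapped some locus of the other table, but 160 and 146 had a best reciprocal overlap under 80%. The highest was at 11770 FPKM in the thin-tailed (chromosome 3, 163139378 to 163140843) and at 16892 FPKM in fat-tailed sheep (chromosome 24, 9697982 to 9699006). The latter overlapped an abundant locus that did have a partner (9697851 to 9698967), at 256 and 2380 FPKM. The 2 unmatched loci would have ranked among the first 10 of their tables, so the rank order above is that of the matched loci only.

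The abundant loci were spread over 26 autosomes and X, with 1114 on these and 23 on unplaced sequences. They made up 15.6% of the matched loci with at least 1 FPKM on chromosome 21 (50 loci), 15.3% on chromosome 5 (95), and 13.0% on both chromosome 14 (79) and chromosome 24 (55). At the other end were chromosomes 23, 8 and 26, with 5.36% (9 loci), 4.94% (12) and 4.88% (6). The largest number, 125, lay on chromosome 3, where they were 10.96% of such loci, beside 10.05% genome-wide. The median log2 ratio of the abundant loci was below 0 on 24 of 27 chromosomes. It lay above 0 on chromosomes 20, 14 and 17, at 0.07, 0.04 and 0.02. On 23 of 27 chromosomes more loci were 2-fold lower than 2-fold higher in fat-tailed sheep. On chromosomes 7, 15, 10 and 26 the reverse held, with 4 higher and 1 lower, 7 and 6, 4 and 3, and 1 and 0. All 11316 matched loci leaned the same way, with 15.6% lower, 8.12% higher and a median log2 ratio of -0.16. Ratios by chromosome were not computed for them, so nothing is read from these counts.

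**Figure D5:**
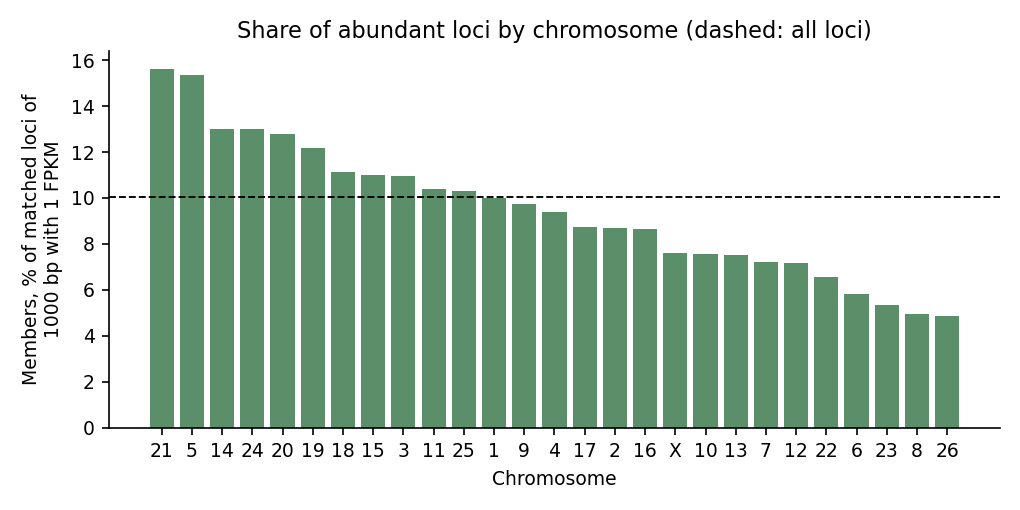
Abundant loci as a percentage of the matched loci of at least 1000 bp with at least 1 FPKM in 1 library, for each of 27 chromosomes in descending order; the dashed line is the 10.05% of all such loci. Bars run from 15.6% on chromosome 21 to 4.88% on chromosome 26.

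A single locus could carry much of a chromosome's abundant transcript. The chromosome 18 locus made up 60.4% of the FPKM of that chromosome's 31 abundant loci in thin-tailed sheep and 0.106% in the fat-tailed one. The chromosome 17 locus made up 67.9% and 43.0% of the FPKM of 29 abundant loci there, and the chromosome 7 locus 65.7% and 71.0% of 35. Of the whole sum, the abundant loci of chromosome 18 held 4.64% and 2.22%, and 1.89% and 2.22% without that locus, the reverse order. Those of chromosome 17 held 4.72% and 2.98%, and those of chromosome 7 held 3.09% and 4.13%.

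Along the genome, the next locus was abundant more often after an abundant locus than after another one. In the order of start positions among the 11316 loci, the next locus was itself abundant for 169 of 1114 abundant loci (15.2%) and for 944 of 9982 others (9.46%). Among loci that overlap no other these shares were 15.1% and 8.51%. Of the 619 windows of 1 Mb with an abundant locus, 39 held 5 or more, 240 loci in all. The fullest window, chosen after its count was seen, was chromosome 14 from 54000001 to 55000000, with 10 abundant among 38 matched loci.

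That window held loci of very different levels. The locus at 54981354, one of the first 10, was described above. At lower coordinates, a locus (54972913 to 54978686) read 536 FPKM (529 to 543) in thin-tailed sheep, rank 236, and 6528 (6255 to 6802) in fat-tailed sheep, rank 29. Its implied fragments were 24806 and 2277, against the direction of the 12.2-fold FPKM difference, and it overlapped 4 other loci in each table. The other 8 ranged from 101 to 2903 FPKM in thin-tailed sheep.

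In span the abundant loci were shorter than other expressed loci. The median span, taken as the smaller of both tables, was 8142 bp with quartiles of 3510 and 18973 bp, against 16486 bp for the 11316 matched loci. It fell with level, from 9937 bp between 100 and 200 FPKM to 3236.5 bp at 5000 FPKM or more. Across the 1137 loci the Spearman correlation of mean FPKM with span was -0.22, and across the 11316 it was -0.17. Span includes introns and is not the transcript length that enters FPKM, which the tables leave blank. The longest abundant locus spanned 512784 bp.

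Few abundant loci carried an identifier from the annotation. An Ensembl identifier was carried by 45 (3.96%) in thin-tailed and 53 (4.66%) in the fat-tailed table, against 7.18% and 10.9% of the 11316 loci, and by 25 in both. A missing identifier does not show that a locus is unannotated, since ENSOARG00000007318 above had the same ends in both tables and its identifier in 1. Identical ends were found for 221 abundant loci (19.4%), against 18.5%. The share rose to 44.1% of the loci with a mean of 5000 FPKM or more. No other locus was overlapped by 644 of the abundant loci (56.6%), against 61.9% of the 11316. Up to 19 other loci were overlapped by a single abundant locus. The tables give no strand, so fragments of overlapping loci on opposite strands cannot be told apart.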

How the data were processed

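Subcutaneous fat RNA was isolated with TRIzol, selected for poly(A) and sequenced on an Illumina machine, as the labels' protocols state. The authors deposited FPKM per locus with a lower and an upper bound, per the file headers, whose column names are those Cufflinks and Cuffdiff write. Per the submitters' processing notes, the tools were FastQC, TopHat and Cuffdiff; the notes give neither versions nor roles. The build, the annotation, the depth and any scaling between libraries: not given in the sources used here.

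Locus starts were taken as counted from 0, since mitochondrial loci then coincide with the gene table, and 1 was added. Pairs of loci were mutual best partners with a reciprocal overlap of at least 80%, which gave 28180 pairs, and 70 tied pairs were left out. Ratios are log2 of FPKM with a pseudocount of 1, which understates low values. Implied fragments are the squared ratio of 2 times FPKM to the upper half-width. With 1 library per tail type no test was made. Matching was tested on simulated loci that overlap no other locus, so it was not tested for overlapping ones. The simulated intervals were built with the same formula as the implied fragments. That run therefore checked the calculation only, and not whether counting error alone sets the deposited widths. Python 3.11.15, pandas 2.3.3 and numpy 2.4.6 were used.

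The named loci are the first 10 by mean FPKM, the 5 largest rises and falls in rank within the first 200, the 5 highest and 5 lowest ratios (both among loci that overlap no other), and 3 on either side of 100 FPKM. Loci listed at 0, those of the first 100 beyond rank 200 and the window on chromosome 14 were added after their values were seen. The chromosome 24 locus starting at 1506240 was mentioned for its wide interval and is not in the counts of named loci. The gene lists of the plan need gene names and were not analysed. The loci and all choices were made with earlier results of these data known. Alternatives covered thresholds, span, overlap, pseudocount, scaling and implied fragments.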

Additional observations from a re-analysis of the deposited data

How the results depend on the processing

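No paired analysis was possible because only 1 library stood for each tail type. The shares of the first 100 loci and the share higher among loci of 2000 FPKM or more, with their alternatives, were chosen after the data were seen. The number of abundant loci, 1137, moved to 2004 at 50 FPKM, 634 at 200, 292 at 500, 749 when both libraries had to reach 100 FPKM, and 644 for loci that overlap no other. Their share of summed FPKM, 72.1% (thin-tailed) and 71.4% (fat-tailed), became 1.97% and 0.217% of the sum over all loci, 34.2% and 33.7% over loci of at least 200 bp, 36.0% and 37.9% by implied fragments, and 68.8% and 66.7% when both the abundant loci and the sum were limited to loci that overlap no other; over loci of at least 2000 bp the fat-tailed share was 73.1%. The share of the first 100, 46.1% and 50.1%, became 49.5% and 56.2% with unmatched loci included, 51.9% and 51.8% with loci and sum limited in the same way, 49.7466% and 51.7592% for these without the chromosome 18 locus, 47.5% and 52.8% over loci of at least 2000 bp, 15.5% and 17.8% by implied fragments, and 44.7% in the thin-tailed library without the chromosome 18 locus. The counts of 114 higher and 221 lower loci became 46 and 46 at 4-fold, 52 and 125 for loci that overlap no other, 26 and 38 with identical ends, and 29 and 88 with a 2-fold difference in implied fragments as well; each of these selects fewer loci by construction. The share higher among loci of 2000 FPKM or more, 77.8%, was 64.2% from 1000 FPKM and between 70.4% and 84.0% under the other 8 alternatives run. Over the expressed matched loci that were not abundant, implied fragments had a median log2 ratio of -0.21. Signs are taken against 0 here and not against this value. By implied fragments 15 of 41 named loci had the opposite sign. Of these, 3 differed by less than 2-fold in FPKM (chromosome 3 at 100399789, with a log2 ratio of -2.36, chromosome 1 at 2897097 with 0.58 and chromosome 24 at 24802861 with -0.02), and the other 12 had log2 ratios of 1.05 (chromosome 18), 0.77 (the unplaced sequence), 1.21 (X), 0.68 (chromosome 2 at 100489026 and, with the same rounding, chromosome 11 at 35776035), -0.16 (chromosome 3 at 103979150), -0.19 (chromosome 2 at 242185986), -0.86 (chromosome 5 at 40557491), -1.61 (chromosome 20 at 7388331), -3.45 (chromosome 14 at 54972913), -0.23 (chromosome 24 at 9697851) and 0.34 (chromosome 10 at 29454677); the cause was not tested. Depth is unknown, and the intervals cover only what the authors' estimate includes.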
